A study of Mus musculus with 4 samples.

Results

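Prostaglandin synthesis and signaling in the dorsal skin was read from 10 genes named by their symbols: *Pla2g4a*, *Ptgs1*, *Ptgs2*, *Ptges*, *Ptges2*, *Ptgds*, *Hpgd*, *Ptger2*, *Ptger3* and *Ptger4*. The rule that picks the genes uses their symbols and no measured value, although the list was drawn up with earlier results of these data known, and all 10 were among the 24346 gene symbols of each library. RNA was sequenced from the dorsal skin of male C57BL/6 mice, 8 weeks of age when the diet began. The Cont-IMQ group (2 libraries) received the NASH diet, a high-fat, high-cholesterol, high-sucrose diet with bile salt that produces steatohepatitis, for 3 weeks and then imiquimod (IMQ) cream for 1 day. The 7KC-IMQ group (2 libraries) was treated in the same way, except that the NASH diet also contained 7-ketocholesterol (7KC), an oxidized form of cholesterol. The comparison therefore asks how dietary 7KC was related to the skin's transcripts in mice that all received the NASH diet and IMQ, a Toll-like receptor 7 agonist that induces psoriasis-like dermatitis. No vehicle-treated skin was used here. The labels do not say whether the 2 libraries of a group came from separate animals, so p-values measure only the spread between these samples.

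The values are FPKM, a fragment number scaled to the exon length of the gene and to the mapped fragments of the library, and can be compared between genes because they are per length. Depth was estimated from the spacing of low values as 14990000 to 16190000 reads per library. Krt5, Krt14, Krt1 and Krt10, the major keratins of the epidermis, lay between 2544 and 8444 FPKM in the 4 libraries, so the markers of the labelled tissue were present. Both Cont-IMQ libraries stood apart by their hair follicle transcripts, in opposite directions. The summed FPKM of 10 anagen hair follicle markers was 413 in 7KC-IMQ replicate 1 and 366 in 7KC-IMQ replicate 2. It was 1468 in Cont-IMQ replicate 2 and 108 in Cont-IMQ replicate 1. The fold changes of the 10 genes that depend most on these libraries are therefore also given without them.

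Prostaglandins are lipid mediators made on demand from arachidonic acid. Phospholipases A2 release the fatty acid from membrane phospholipids, the cyclooxygenases convert it to prostaglandin H2, and terminal synthases turn this intermediate into prostaglandin E2, prostaglandin D2 and related products. The products leave the cell and act through G protein-coupled receptors before they are taken up and oxidized. In skin, prostaglandin E2 is a well-known mediator of vasodilation, pain and keratinocyte responses, and its receptors EP1 to EP4 are encoded by *Ptger1* to *Ptger4*.

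None of the 10 genes passed the test between the diets, and the arrangement of the libraries differed from gene to gene. *Ptges*, *Ptges2* and *Ptger3* had higher values in the 7KC-IMQ libraries than in either Cont-IMQ library, whereas *Pla2g4a* and *Hpgd* were lower in both. The groups overlapped for *Ptgs1*, *Ptgs2*, *Ptgds*, *Ptger2* and *Ptger4*. The highest log2 fold change was 0.58 (*Ptgs2*) and the lowest was -0.29 (*Pla2g4a*), on the scale of log2(FPKM + 1), which makes changes of weakly expressed genes look smaller. Adjusted p-values in limma lay between 0.352 and 0.867, with Benjamini-Hochberg adjustment over all 15896 genes tested. The share of all genes past an adjusted p of 0.05 was 0.00629%, which is 1 gene, *Mir24-2*, a microRNA gene listed at 0 in both 7KC-IMQ libraries and named after its values were seen.

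Before adjustment, 3 of the 10 genes had a limma p-value under 0.05 (*Ptges*, *Ptges2* and *Pla2g4a*), against 13.0% of all genes tested. Of the 10 genes, 3 were higher in 7KC-IMQ without overlap, against 23.9% of all genes, and 2 were lower without overlap, against 22.9%. Without Cont-IMQ replicate 2, 6 of the 10 genes were higher (38.9% of all genes) and 3 were lower (38.6%) without overlap. Without Cont-IMQ replicate 1, 3 were higher (38.6%) and 4 were lower (39.1%). Without 7KC-IMQ replicate 1, 5 were higher (35.8%) and 4 were lower (35.2%). When the libraries were rescaled to the same sum, 31.8% of the genes without overlap were higher, against 51.1% as deposited, and the same 3 genes were higher. The median log2 fold change was -0.03 for the 10 genes and -0.0056 for all genes tested. It was 0.187 for the 10 genes without Cont-IMQ replicate 2 and -0.056 without Cont-IMQ replicate 1.

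**Figure D1:**
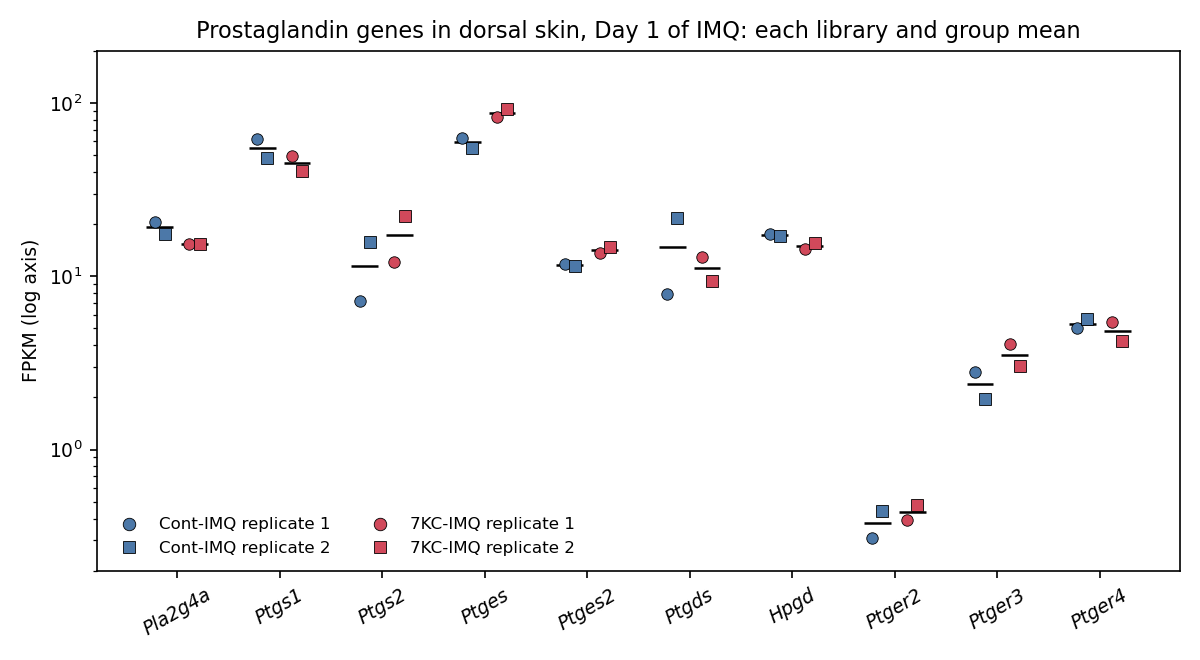
FPKM of the 10 prostaglandin genes on a log axis, with 1 point per library (circles replicate 1, squares replicate 2), Cont-IMQ in blue and 7KC-IMQ in red, and a bar at each group mean. The red points of *Ptges*, *Ptges2* and *Ptger3* lie above both blue points, those of *Pla2g4a* and *Hpgd* lie below both, and the 2 libraries of a group lie far apart for *Ptgs2* and for *Ptgds* in Cont-IMQ.

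The order of levels was led by the microsomal prostaglandin E synthase. Over the 4 libraries, *Ptges* had a mean FPKM of 73.5 ± 17.3 (SD, n = 4), followed by *Ptgs1* at 49.98 ± 8.84. These neighbors overlapped, since the lowest *Ptges* value (55.3) was below the highest *Ptgs1* value (61.7). *Ptgs1* was above *Pla2g4a* in every pair of libraries. *Pla2g4a* (17.3 ± 2.49), *Hpgd* (16.1 ± 1.38), *Ptgs2* (14.3 ± 6.40), *Ptgds* (13.0 ± 6.17) and *Ptges2* (12.9 ± 1.53) had similar mean FPKM, and each overlapped with its neighbor in the order. The 3 receptors were the lowest and were separated from each other in every pair of libraries, with mean FPKM of 5.09 ± 0.636 for *Ptger4*, 2.95 ± 0.863 for *Ptger3* and 0.405 ± 0.0735 for *Ptger2*.

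The promoters of *Ptgs2*, *Ptges* and *Hpgd* are shown because these genes stand for the inducible, terminal and degrading steps whose levels are set against each other below. The sequences are from RefSeq (GRCm38.p6, the assembly also called mm10), in which all 10 genes had a window of 250 bases before and 50 bases after the start, and are printed 5′ to 3′ on the strand of the gene. They cover chr1:150099781-150100030 (+ strand) and chr1:150100037-150100059 (+ strand, after the start) for *Ptgs2*, chr2:30903298-30903547 (- strand) for *Ptges*, and chr8:56294302-56294551 (+ strand) and chr8:56294552-56294568 (+ strand, after the start) for *Hpgd*. Capitals mark matches, on either strand, to the C/EBP motif TTNNGNAA, the GC box GGGCGG, the cyclic AMP response element core CGTCA, the E-box CACGTG and the TATA box TATAAA.
Ptgs2 before the start: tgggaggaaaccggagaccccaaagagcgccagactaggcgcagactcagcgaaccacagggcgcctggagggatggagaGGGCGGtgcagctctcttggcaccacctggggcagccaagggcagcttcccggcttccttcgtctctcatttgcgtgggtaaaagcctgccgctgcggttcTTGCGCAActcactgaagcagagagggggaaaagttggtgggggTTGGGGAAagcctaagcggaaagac
Ptgs2 after the start: accactaCGTCACGTGgagtccg
Ptges before the start: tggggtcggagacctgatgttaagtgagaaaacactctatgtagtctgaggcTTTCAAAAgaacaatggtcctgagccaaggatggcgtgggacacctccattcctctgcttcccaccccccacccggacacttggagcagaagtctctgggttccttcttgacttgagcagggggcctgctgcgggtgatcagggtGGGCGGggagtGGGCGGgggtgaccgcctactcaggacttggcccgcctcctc
Hpgd before the start: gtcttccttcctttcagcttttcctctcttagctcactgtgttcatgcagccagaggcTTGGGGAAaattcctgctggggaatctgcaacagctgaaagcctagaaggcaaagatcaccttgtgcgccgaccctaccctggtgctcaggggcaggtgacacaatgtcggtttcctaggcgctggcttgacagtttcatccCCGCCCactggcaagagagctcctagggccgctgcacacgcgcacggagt
Hpgd after the start: gggcTATAAAagctgct

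The *Ptgs2* window held a C/EBP match at -69 to -62, read on both strands, another at -25 to -18, and a GC box at -170 to -165. After its start, the cyclic AMP response element core at 14 to 18 overlapped the E-box at 17 to 22. The *Ptges* window held a C/EBP match at -198 to -191 on the opposite strand and 2 GC boxes, at -53 to -48 and -42 to -37, and no TATA box by these letters. The RefSeq start used for *Ptges* lies inside the GENCODE gene, whose 5′ end on the - strand is at position 30929863. The *Hpgd* window held a C/EBP match at -192 to -185, a GC box at -50 to -45 on the opposite strand, and a TATA box at 5 to 10 after the RefSeq start, which lies before the GENCODE start at position 56294585. Among the 10 genes, 7 windows held a C/EBP match, against 40.7% of 32851 promoters of the same length, and 5 held a GC box, against 35.7%. The GC box was chosen after the sequences were seen. The cyclic AMP response element core was found only in *Ptgs2* (20.8% of promoters), the E-box in *Ptgs2* and *Ptges2* (7.15%), the TATA box only in *Hpgd* (13.6%), and both the AP-1 motif TGANTCA (7.81%) and the NF-kB consensus (4.51%) only in *Ptgds*. These matches are descriptions of the letters in the windows.

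For the release of arachidonic acid, *Pla2g4a* encodes cytosolic phospholipase A2 alpha, which prefers arachidonate-containing phospholipids. The gene lies on chromosome 1 (149829618 to 149961290, - strand), 138.7 kb from *Ptgs2*. *Pla2g4a* had an FPKM of 20.7 and 17.6 in Cont-IMQ replicates 1 and 2 and of 15.4 in both 7KC-IMQ libraries. Both 7KC-IMQ values lay below both Cont-IMQ values, and the mean FPKM was 19.1 ± 2.21 in Cont-IMQ and 15.4 ± 0.0024 in 7KC-IMQ (SD, n = 2 each). Its log2 fold change was -0.29 (SE 0.11, adjusted p = 0.374 in limma), which was -0.18 without Cont-IMQ replicate 1 and -0.40 without Cont-IMQ replicate 2. As these are bulk samples, fewer cells of a type and less RNA per cell cannot be told apart for this or any other gene described here.

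The other cytosolic phospholipases A2 were arranged differently. *Pla2g4b*, *Pla2g4d* and *Pla2g4e*, which lie in a cluster on chromosome 2 with *Pla2g4f*, were higher in 7KC-IMQ without overlap (23.9% of all genes). *Pla2g4e*, an enzyme known as an N-acyltransferase, had an FPKM of 33.7 and 31.0 in Cont-IMQ and of 47.0 and 69.4 in 7KC-IMQ, with a log2 fold change of 0.80 (SE 0.20, adjusted p = 0.356 in limma). *Pla2g4b* had an FPKM of 15.1 and 12.3 in Cont-IMQ and of 24.2 and 32.3 in 7KC-IMQ, with a log2 fold change of 0.99 (SE 0.18, adjusted p = 0.352). Its level is uncertain because 63.0% of the 75-base windows of its transcripts also occur in the overlapping gene *Gm28042*. *Pla2g4d* was low, at 1.07 and 0.616 FPKM in Cont-IMQ and 1.75 and 3.16 in 7KC-IMQ. *Pla2g4f* overlapped between the groups, with 41.0 to 49.0 FPKM in Cont-IMQ and 41.9 to 50.1 in 7KC-IMQ. *Pla2g4c* was low and also overlapped, at 0.225 and 0.349 FPKM in Cont-IMQ and 0.229 and 0.145 in 7KC-IMQ.

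As a share of the summed FPKM of the 6 cytosolic genes *Pla2g4a* to *Pla2g4f*, *Pla2g4a* made up 17.3% and 17.1% in Cont-IMQ and 11.8% and 9.04% in 7KC-IMQ. The share of *Pla2g4e* was 28.1% and 30.2% in Cont-IMQ and 36.0% and 40.7% in 7KC-IMQ. The shares did not overlap between the groups for either gene, and each share is free of the scaling between libraries. However, shares of the same sum are tied to each other. The *Pla2g4f* share was also lower without overlap (40.9% and 39.8% against 32.1% and 29.4%), although its FPKM overlapped. The sum includes *Pla2g4b*, whose level is uncertain, at 12.6% and 12.0% in Cont-IMQ and 18.5% and 19.0% in 7KC-IMQ. With 2 libraries a group, the smallest two-sided p-value of an exact permutation test is 0.333, so none was run on these shares.

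Of the secreted phospholipases A2, *Pla2g2f*, the main secreted form of the epidermis, was the most abundant gene of the pathway list. It had an FPKM of 314 and 312 in Cont-IMQ and of 254 and 231 in 7KC-IMQ. Its values were lower in 7KC-IMQ without overlap, with a log2 fold change of -0.37 (SE 0.08, adjusted p = 0.356 in limma). *Pla2g3*, whose product is known for its role in mast cell maturation, had an FPKM of 3.51 and 2.66 in Cont-IMQ and of 2.01 and 1.39 in 7KC-IMQ. *Pla2g6*, the calcium-independent enzyme, was higher without overlap, with 4.66 and 4.85 FPKM in Cont-IMQ and 5.80 and 6.67 in 7KC-IMQ. *Pla2g10* was listed at 0 in the 4 libraries and was not tested. Of 12 release genes tested, 4 were higher (23.9% of all genes) and 3 lower (22.9%) without overlap, 7 had an unadjusted p-value under 0.05 (13.0%), and none passed the adjusted test in limma.

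The cyclooxygenases catalyze the committed step. *Ptgs1* (chromosome 2, 36230426 to 36252272, + strand) encodes the constitutive COX-1, and *Ptgs2* (chromosome 1, 150100031 to 150108227, + strand) encodes COX-2, the form induced by cytokines and growth factors. *Ptgs1* had an FPKM of 61.7 and 48.2 in Cont-IMQ and of 49.7 and 40.3 in 7KC-IMQ. The groups overlapped, with 7KC-IMQ replicate 1 above Cont-IMQ replicate 2, and the log2 fold change was -0.28 (SE 0.16, adjusted p = 0.531 in limma). It was -0.46 without Cont-IMQ replicate 2, where the groups no longer overlapped, and -0.11 without Cont-IMQ replicate 1. The groups also lay apart after rescaling to the same sum and after quantile normalization, with *Ptgs1* lower in 7KC-IMQ. *Gm43621* overlaps *Ptgs1* on the other strand, and whether the counting used strand is not given in the sources used here.

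*Ptgs2* had an FPKM of 7.17 and 15.7 in Cont-IMQ replicates 1 and 2 and of 12.0 and 22.4 in 7KC-IMQ replicates 1 and 2. The higher library was 2.197 times the lower within Cont-IMQ and 1.86 times within 7KC-IMQ, and both ratios exceeded the ratio of the group means, 1.502. The groups overlapped, with Cont-IMQ replicate 2 above 7KC-IMQ replicate 1. The log2 fold change of *Ptgs2* was 0.58 (SE 0.45, adjusted p = 0.621 in limma). The value was 0.06 without Cont-IMQ replicate 1 and 1.10 without Cont-IMQ replicate 2. The difference was thus smaller than the spread between the libraries of a group, and a change of *Ptgs2* was not detectable with these samples. The values rest on an estimated 464 to 1425 reads per library.

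The 2 cyclooxygenases together were less variable than either gene. Their summed FPKM was 68.9 and 64.0 in Cont-IMQ and 61.7 and 62.7 in 7KC-IMQ. The sum was thus lower in 7KC-IMQ without overlap, and this difference was not tested. *Ptgs2* made up 10.4% and 24.6% of the sum in Cont-IMQ and 19.5% and 35.7% in 7KC-IMQ. *Ptgs1* was the more abundant cyclooxygenase transcript in every library, and the share of *Ptgs2* overlapped between the groups.

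The transcripts of all 3 terminal synthases of prostaglandin E2 were higher in 7KC-IMQ without overlap (23.9% of all genes), and none passed the test. *Ptges* (chromosome 2, 30889471 to 30929863, - strand) encodes microsomal prostaglandin E synthase-1, the inducible enzyme that works with COX-2. Its FPKM was 63.1 and 55.3 in Cont-IMQ and 83.5 and 92.3 in 7KC-IMQ. Both 7KC-IMQ values exceeded both Cont-IMQ values, and the mean FPKM was 59.2 ± 5.49 in Cont-IMQ and 87.9 ± 6.24 in 7KC-IMQ (SD, n = 2 each).

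The log2 fold change of *Ptges* was 0.56 (SE 0.10), with an unadjusted p-value of 0.0033 and an adjusted p of 0.352 in limma, so that the difference exceeded the spread between libraries but did not pass the correction over all genes. It lay between 0.47 and 0.66 when each library was left out in turn. *Ptges* overlaps no other gene and shares no 75-base window with another gene, and its values rest on an estimated 2884 to 4769 reads.

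*Ptges2* (chromosome 2, 32395896 to 32405772, + strand), the membrane-associated prostaglandin E synthase-2, had an FPKM of 11.8 and 11.5 in Cont-IMQ and of 13.6 and 14.7 in 7KC-IMQ. These groups did not overlap, and the log2 fold change was 0.26 (SE 0.09, adjusted p = 0.365 in limma). *Ptges3*, the cytosolic synthase that is also the Hsp90 co-chaperone p23, had an FPKM of 93.8 and 100.04 in Cont-IMQ and of 115 and 119.5 in 7KC-IMQ. Its log2 fold change was 0.27 (SE 0.07, adjusted p = 0.356 in limma), and 18.47% of its windows are shared with pseudogenes. The summed FPKM of the 3 genes was 169 and 167 in Cont-IMQ and 212 and 227 in 7KC-IMQ, and *Ptges* made up 33.2% to 37.4% of it in Cont-IMQ and 39.3% to 40.8% in 7KC-IMQ.

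The prostaglandin D2 branch did not share this arrangement. *Ptgds* (chromosome 2, 25466709 to 25470046, - strand) encodes the lipocalin-type prostaglandin D synthase, which is also a carrier of retinoids. It had an FPKM of 7.88 and 21.7 in Cont-IMQ and of 13.0 and 9.43 in 7KC-IMQ. Cont-IMQ replicate 2 was the highest and Cont-IMQ replicate 1 the lowest library, so both 7KC-IMQ values lay between the values of the control group.

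The log2 fold change of *Ptgds* was -0.23 (SE 0.47, adjusted p = 0.867 in limma), and it turned to 0.44 without Cont-IMQ replicate 2 and was -0.91 without Cont-IMQ replicate 1. The 4 libraries had the same order for *Ptgds* as for the summed FPKM of the anagen hair follicle markers. All 10 hair follicle markers, which include *Krt25*, *Krt71* and *Tchh*, were highest in Cont-IMQ replicate 2 and lowest in Cont-IMQ replicate 1, and none was at 0 in all libraries. The 5 melanocyte markers did likewise, with a summed FPKM of 149 in Cont-IMQ replicate 2 and 45.3 to 85.1 in the other libraries. The part of these cells in the *Ptgds* values was not tested. *Hpgds*, the hematopoietic prostaglandin D synthase of mast cells and other immune cells, had an FPKM of 10.8 and 11.2 in Cont-IMQ and of 10.6 and 9.46 in 7KC-IMQ.

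**Figure D2:**
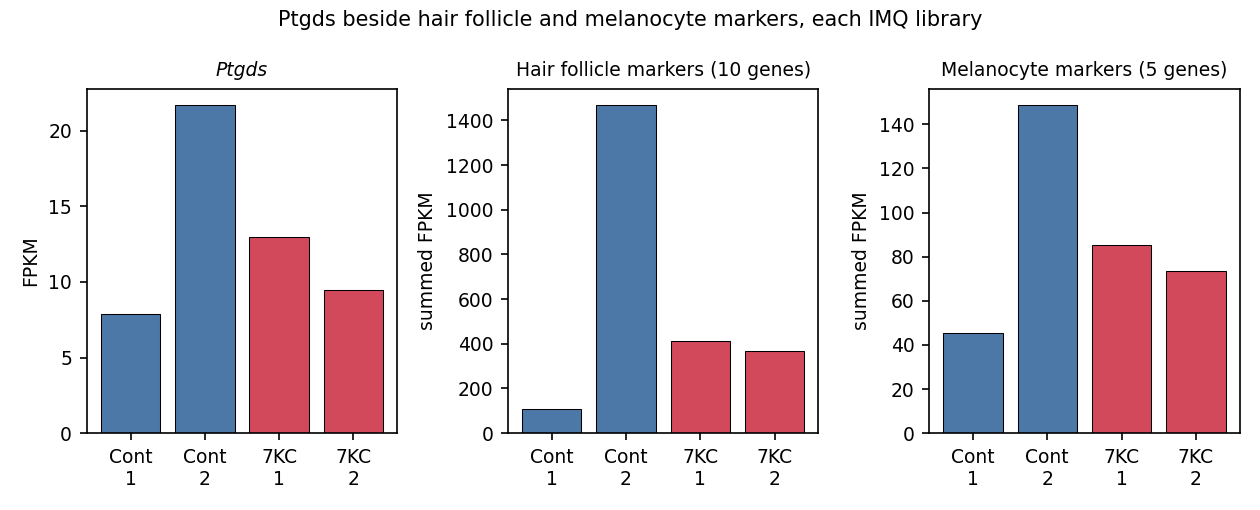
FPKM of *Ptgds* and the summed FPKM of 10 anagen hair follicle markers and of 5 melanocyte markers, with 1 bar per library, Cont-IMQ in blue and 7KC-IMQ in red, each axis starting at 0. In each panel Cont-IMQ replicate 2 is the highest bar and Cont-IMQ replicate 1 the lowest, with both 7KC-IMQ bars between them.

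The remaining synthases overlapped between the groups. *Ptgis* (prostacyclin synthase) lay between 0.810 and 1.38 FPKM, *Tbxas1* (thromboxane A synthase) between 1.34 and 1.81 and *Cbr1*, a carbonyl reductase that acts on prostaglandin E2, between 42.4 and 46.4. *Fam213b*, the older symbol of the prostamide and prostaglandin F synthase *Prxl2b*, lay between 49.9 and 69.3 FPKM. *Akr1b3*, an aldose reductase with prostaglandin F synthase activity, was listed at 2.98 and 0 in Cont-IMQ and at 1.43 and 6.42 in 7KC-IMQ. Its 0 can be a failed estimate. Of 13 synthesis genes tested, 3 were higher (23.9% of all genes) and 1 was lower (22.9%) without overlap, 3 had an unadjusted p-value under 0.05 (13.0%), and none passed the adjusted test in limma.

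For breakdown, *Hpgd* (chromosome 8, 56294585 to 56321043, + strand) encodes hydroxyprostaglandin dehydrogenase, which carries out the initial oxidation that inactivates prostaglandin E2. *Hpgd* had an FPKM of 17.4 and 17.1 in Cont-IMQ and of 14.5 and 15.6 in 7KC-IMQ. Both 7KC-IMQ values were below both Cont-IMQ values, with an SD of 0.273 in Cont-IMQ and 0.777 in 7KC-IMQ (n = 2 each) and a ratio of the means of 0.870. On the log2 scale the fold change was -0.19 (SE 0.08, adjusted p = 0.433 in limma).

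Of the other genes that carry or break down prostaglandins, *Abcc4*, *Ptgr1* and *Zadh2* were also lower without overlap. *Abcc4*, an exporter of prostaglandins, had an FPKM of 9.06 and 7.86 in Cont-IMQ and of 7.81 and 7.22 in 7KC-IMQ. Its value in 7KC-IMQ replicate 1 was below that in Cont-IMQ replicate 2 by little. *Ptgr1*, the prostaglandin reductase that acts after *Hpgd*, had an FPKM of 44.3 and 35.4 in Cont-IMQ and of 34.1 and 32.5 in 7KC-IMQ. *Zadh2*, the older symbol of *Ptgr3*, had an FPKM of 13.3 and 11.6 in Cont-IMQ and of 10.5 and 11.1 in 7KC-IMQ. Together with *Hpgd*, 4 of 6 genes for transport and breakdown were thus lower without overlap, against 22.9% of all genes. None of the 6 had an unadjusted p-value under 0.05 or passed the adjusted test in limma, and their median log2 fold change was -0.17. *Slco2a1*, the prostaglandin uptake transporter, and *Ptgr2* overlapped, at 11.4 to 16.2 and 11.8 to 12.7 FPKM.

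**Figure D3:**
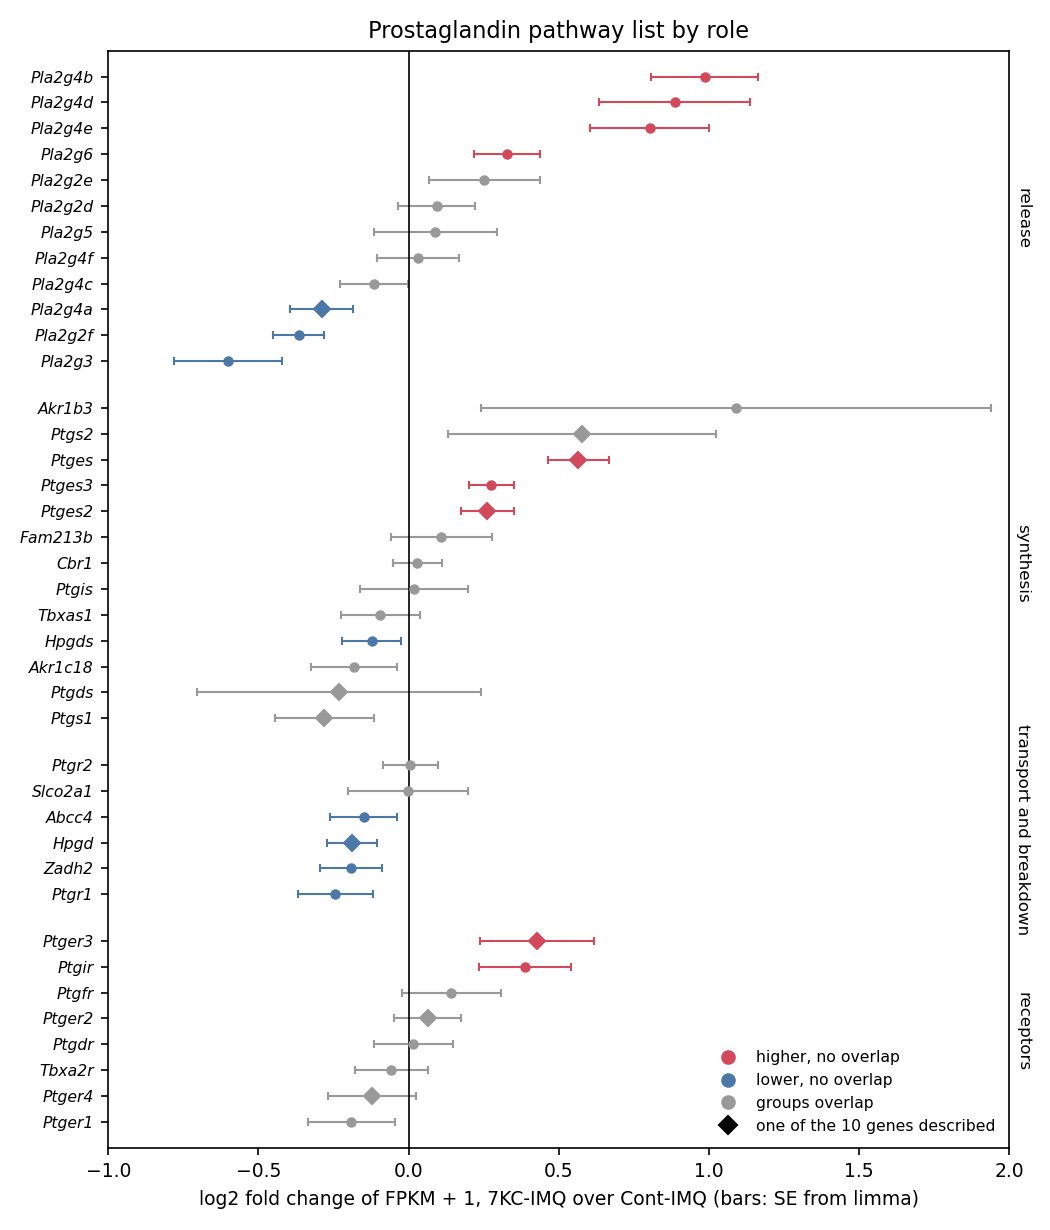
Log2 fold change on the scale of log2(FPKM + 1), 7KC-IMQ over Cont-IMQ, of the 39 tested genes of the prostaglandin pathway list by role, with bars for the SE from limma and diamonds for the 10 genes described. The 3 prostaglandin E synthase genes lie to the right of 0 without overlap between groups (red), against 23.9% of all genes tested. Of 6 genes for transport and breakdown, 4 lie to the left without overlap (blue), against 22.9%. Gray marks genes whose groups overlap.

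*Ptges* and *Ptgs2* were also set against *Hpgd*, and *Ptgs2* against *Ptgs1*, by ratios within a library, which are free of the scaling between libraries. The ratio of *Ptges* to *Hpgd* FPKM was 3.62 and 3.24 in Cont-IMQ and 5.78 and 5.94 in 7KC-IMQ. That both 7KC-IMQ ratios exceeded both Cont-IMQ ratios follows from the arrangement of the 2 genes given above and adds no separate result, and the ratio serves to give the size, with a mean log2 ratio of 1.78 ± 0.11 in Cont-IMQ and 2.55 ± 0.03 in 7KC-IMQ (SD, n = 2 each). The difference was 0.77 on the log2 scale (exact permutation p = 0.333, two-sided), which is the smallest p-value that 2 libraries against 2 can give.

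The ratios that contain *Ptgs2* overlapped. The ratio of *Ptgs2* to *Hpgd* was 0.411 and 0.923 in Cont-IMQ and 0.834 and 1.44 in 7KC-IMQ, and the log2 difference was 0.83 (exact permutation p = 0.667, two-sided), or 0.25 to 1.41 when each library was left out. The ratio of *Ptgs2* to *Ptgs1* was 0.116 and 0.326 in Cont-IMQ and 0.243 and 0.555 in 7KC-IMQ, and the log2 difference was 0.91 (exact permutation p = 0.667, two-sided), or 0.17 to 1.66 when each library was left out. With the ratio of *Ptger4* to *Ptger2*, 4 ratios were compared, and no p-value could pass a correction over them.

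The receptors for prostaglandin E2 were expressed at low levels. *Ptger4* (chromosome 15, 5206661 to 5244187, - strand) encodes EP4, which raises cyclic AMP. It had an FPKM of 5.02 and 5.63 in Cont-IMQ and of 5.47 and 4.21 in 7KC-IMQ, where 7KC-IMQ replicate 2 was the lowest library and the groups overlapped. This gave a log2 fold change of -0.12 (SE 0.15, adjusted p = 0.760 in limma), which was 0.03 without 7KC-IMQ replicate 2. Like *Ptgs1*, *Ptger4* has an overlapping gene on the other strand, *Ttc33*.

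*Ptger3* (chromosome 3, 157566892 to 157645888, + strand) encodes EP3, which lowers cyclic AMP. Its FPKM was 2.79 and 1.95 in Cont-IMQ and 4.05 and 3.02 in 7KC-IMQ. Both 7KC-IMQ values were above both Cont-IMQ values, although 7KC-IMQ replicate 2 exceeded Cont-IMQ replicate 1 by little, and the mean FPKM was 2.37 ± 0.594 in Cont-IMQ and 3.53 ± 0.733 in 7KC-IMQ (SD, n = 2 each). The log2 fold change was 0.43 (SE 0.19, adjusted p = 0.436 in limma), from an estimated 87 to 193 reads. It was 0.25 without Cont-IMQ replicate 2 and lay between 0.25 and 0.61 when each library was left out in turn.

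*Ptger2* (chromosome 14, 44988195 to 45003820, + strand) encodes EP2, which also raises cyclic AMP. Its FPKM was 0.309 and 0.441 in Cont-IMQ and 0.391 and 0.479 in 7KC-IMQ, from an estimated 16 to 25 reads per library. The groups overlapped, and the log2 fold change was 0.06 (SE 0.11, adjusted p = 0.841 in limma). It was -0.0064 without Cont-IMQ replicate 1 and 0.13 without Cont-IMQ replicate 2. No difference in *Ptger2* was detected, the part of sequencing depth in this was not tested, and genes on the other strand overlap it.

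*Ptger1*, which encodes EP1, had an FPKM of 3.74 and 4.79 in Cont-IMQ and of 3.82 and 3.37 in 7KC-IMQ. Of the summed FPKM of the 4 EP receptor genes, *Ptger3* made up 23.6% and 15.3% in Cont-IMQ and 29.5% and 27.2% in 7KC-IMQ. *Ptger4* made up 42.4% and 43.9% in Cont-IMQ and 39.9% and 38.0% in 7KC-IMQ. The *Ptger3* share was higher in 7KC-IMQ without overlap and the *Ptger1* (31.5% and 37.4% against 27.8% and 30.4%) and *Ptger4* shares were lower, but shares of 1 sum are tied to each other, and the FPKM of *Ptger1* and *Ptger4* overlapped. The sum itself also overlapped, at 11.9 and 12.8 FPKM in Cont-IMQ and 13.7 and 11.1 in 7KC-IMQ. The ratio of *Ptger4* to *Ptger2* was 16.3 and 12.8 in Cont-IMQ and 14.0 and 8.78 in 7KC-IMQ, and the log2 difference was -0.38 (exact permutation p = 0.667, two-sided), or -0.71 to -0.04 when each library was left out.

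**Figure D4:**
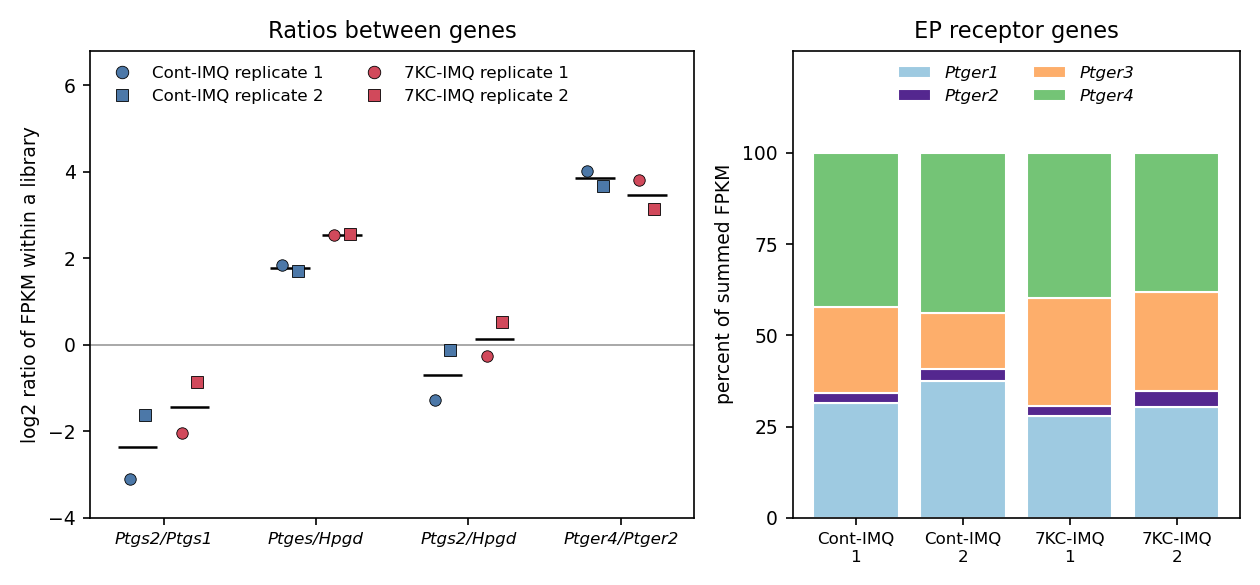
Left, log2 ratios of FPKM between genes within a library, with 1 point per library and a bar at each group mean. Right, shares in percent of the 4 EP receptor genes in their summed FPKM, 1 stacked bar per library. The *Ptges* to *Hpgd* ratio of both 7KC-IMQ libraries lies above both Cont-IMQ libraries, the other 3 ratios overlap, and the *Ptger3* share is larger in the 7KC-IMQ bars.

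Among the receptors of other prostanoids, *Ptgir*, the prostacyclin receptor, was higher in 7KC-IMQ without overlap. It had an FPKM of 1.76 and 1.28 in Cont-IMQ and of 2.52 and 2.06 in 7KC-IMQ, with a log2 fold change of 0.39 (SE 0.15, adjusted p = 0.394 in limma). *Ptgfr* (prostaglandin F receptor), *Ptgdr* (prostaglandin D receptor) and *Tbxa2r* (thromboxane receptor) overlapped, and *Ptgdr2* was too low to be tested. Of 8 receptors tested, 2 were higher (23.9% of all genes) and none was lower (22.9%) without overlap, none had an unadjusted p-value under 0.05, and none passed the adjusted test in limma.

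Over the pathway list of 41 genes, which holds the 10 genes described, 39 were tested and none passed the adjusted test in limma, while 10 had an unadjusted p-value under 0.05 (7 higher and 3 lower), against 13.0% of all genes. In 9 genes the 7KC-IMQ values were higher without overlap, against 23.9% of all genes, and in 8 they were lower, against 22.9%, so that both shares were near those of all genes. The median log2 fold change was 0.02.

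Marker sums of several other cell types also lay apart between the diets. The summed FPKM of 6 neutrophil markers was 18.3 and 20.5 in Cont-IMQ and 28.3 and 30.4 in 7KC-IMQ. Most of this sum was *Cxcr2* in every library. Without overlap, 5 of the 6 were higher (23.9% of all genes), as were *Ptges*, *Ptges2* and *Ptger3*. Of these 5 markers, *Mpo* and *Camp* were very low, at no more than 0.0562 and 0.682 FPKM. Each of them was listed at 0 in 1 Cont-IMQ library. The summed FPKM of 5 endothelial markers was 43.9 and 49.8 in Cont-IMQ and 37.7 and 35.9 in 7KC-IMQ. Without overlap, 4 of the 5 were lower (22.9% of all genes), as were *Pla2g4a* and *Hpgd*. The sum of 7 mast cell markers was 106 and 104 in Cont-IMQ and 87.1 and 91.6 in 7KC-IMQ, with 3 of 7 lower (22.9%). That of 4 T cell markers was 17.7 and 15.9 in Cont-IMQ and 13.4 and 10.8 in 7KC-IMQ. Of these 4, 3 were lower (22.9%) and 1 was higher (23.9%). None of these markers was at 0 in all libraries. The sum of 6 skeletal muscle markers was 7074 and 6985 in Cont-IMQ and 5739 and 6873 in 7KC-IMQ, with 2 genes higher (23.9%) and 2 lower (22.9%). The sums of the keratinocyte, fibroblast, macrophage, Langerhans and dendritic cell, adipocyte and red blood cell lists overlapped, as did those of the hair follicle and melanocyte lists. The part of these cells in the values of the prostaglandin genes was not tested.

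The genes most like *Ptgs2*, *Ptges* and *Ptgds* were found among the 13110 genes whose mean FPKM reached 1 by the root mean square difference of their centered log2(FPKM + 1) values over the 4 libraries. *Pi15*, a peptidase inhibitor, was most like *Ptgs2*, with a difference of 0.10, and had an FPKM of 3.68 and 7.22 in Cont-IMQ and of 6.02 and 12.9 in 7KC-IMQ. *Tnfsf9*, the ligand of 4-1BB, and *Dyrk3*, a protein kinase, followed with 0.15 each. *Aldh18a1*, an enzyme of proline synthesis, *Map2k1*, which encodes the kinase MEK1, and *Ppp1r3c*, a glycogen-targeting phosphatase subunit, were most like *Ptges*, with differences of 0.02 to 0.03. *Pck1*, the gluconeogenic and glyceroneogenic enzyme, was most like *Ptgds*, with a difference of 0.05, and had an FPKM of 8.45 and 25.3 in Cont-IMQ and of 14.2 and 10.7 in 7KC-IMQ. *Slc16a7*, a monocarboxylate transporter, and *1700120C14Rik* came next, with 0.06 and 0.09. Over only 4 libraries, such likeness describes the order and size of the values and is no measure of a relation.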

How the data were processed

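Dorsal skin RNA of 2 Cont-IMQ and 2 7KC-IMQ libraries was analysed, grouped by the sample labels. The authors mapped single-end reads of 75 bases to the mouse assembly mm10 and deposited 1 FPKM per gene symbol and library. The submitters' processing notes name TopHat2 2.1.1, Bowtie2 2.2.8, SAMtools 0.1.18 and Cuffdiff 2.2.1, and the study's methods give partly other versions. The deposited FPKM were neither rescaled nor treated as counts, because read counts were not used here. A value of exactly 0 can be a failed estimate.

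Values were transformed to log2(FPKM + 1), the 15896 genes whose mean FPKM reached 0.1 were kept, and 7KC-IMQ was set against Cont-IMQ by lmFit and eBayes with a variance trend in limma 3.58.1 (R 4.3.3), with Benjamini-Hochberg adjustment at 0.05. Ratios were compared by exact permutation over libraries. The script was tested on simulated data. Reads behind a value were estimated from the depth that brought low values of genes with a single transcript closest to whole reads, within 0.1 read for 72.4% to 75.7% of 518 to 549 genes, against 20.0% by chance. Such reads cover counting error only. Gene positions and shared 75-base windows came from GENCODE M21 (GRCm38), and promoters from RefSeq (GRCm38.p6).

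The 10 genes, the pathway list of 41 genes, the cell markers (78 of 82 measured) and the motifs were chosen with earlier results of these data known. Named genes were the 10 genes, the pathway list, the 3 genes most like *Ptgs2*, *Ptges* and *Ptgds*, and markers beside a result they moved with. Alternatives were a smaller pseudocount (0.1), a stricter filter (mean FPKM of 1) or none, 3 other scalings, a fit without the trend, a block for the replicate number, and leaving out each library. The labels number the replicates alike in both groups but do not tie a number to a common litter, day or batch.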

Additional observations from a re-analysis of the deposited data

How the results depend on the processing

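Of 119 alternative fold changes of the 10 genes, 116 kept their direction, 3 reversed and none changed its call in limma. The reversals came from leaving out 1 library. The log2 fold change of *Ptgds* was 0.444 without Cont-IMQ replicate 2 (range -0.908 to 0.444), that of *Ptger2* was -0.0064 without Cont-IMQ replicate 1 (to 0.132), and that of *Ptger4* was 0.034 without 7KC-IMQ replicate 2 (from -0.278). The cause was not tested. *Ptges*, *Ptges2* and *Ptger3* were higher and *Pla2g4a* and *Hpgd* lower without overlap under the 3 other scalings. The other alternatives keep the order of the values or leave out a library, so they could not make these groups overlap. The number of genes called was 2 with a pseudocount of 0.1 and 1 to 11 when each library was left out (11 without Cont-IMQ replicate 1, 5 without Cont-IMQ replicate 2), and 3 to 6 of the 10 genes were then higher and 2 to 4 lower without overlap. The median log2 fold change of the 10 genes, -0.03, was 0.018 with a pseudocount of 0.1, -0.122 when the mean FPKM had to reach 1, which drops *Ptger2*, -0.076 with the same sum in each library, 0.0062 with quantile normalization, and -0.056 to 0.187 when each library was left out. No ratio changed its direction, but 3 of the 4 moved by over 1.5 times when a library was left out, and *Ptges* to *Hpgd* lay between 0.70 and 0.85.

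With the replicate number as a block, 1 gene was called and the adjusted p was 0.426 for both *Ptges* and *Ptgs2*. The median of the 10 genes was -0.03 and none was called. Across 15896 genes, the difference between replicates 1 and 2 in one group had a correlation of 0.0651 with that in the other. This value cannot show whether libraries with the same number share a litter, day or batch. The difference in *Ptgs2* lies within its own spread between libraries, and the values of *Ptger2* rest on an estimated 16 to 25 reads per library.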
